A study of Mus musculus with 2 samples.

Results

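The microRNA genes Mir23a, Mir27a and Mir24-2 on chromosome 8 and their paralogs Mir23b, Mir27b and Mir24-1 on chromosome 13 form a pair of clusters that were described in mouse calf muscle. These 6 genes were chosen by name, as the members of both clusters in the GENCODE vM21 annotation, out of 2202 microRNA genes counted. All 6 had counts in both libraries and all 6 passed the minimum of 10 CPM (counts-per-million) used for tests. Small RNA under 30 nt was sequenced from gastrocnemius of male B6CASTF1/J mice, the first-generation offspring of C57BL/6 and CAST/EiJ parents, at 14 days of age, with no treatment named. There was 1 group with 2 biological replicates, 1 library each. The labels mention several males, name the same donor for both replicates and do not say whether a replicate is a pool, so the spread between them may be partly technical. With no second group, the values below are levels, ratios between genes and differences between these 2 libraries.

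A microRNA is cut from a hairpin precursor whose arms give a 5p and a 3p mature strand. The mature strand guides a silencing complex to messenger RNAs, mainly through its seed, bases 2 to 8. Genes of a cluster are transcribed together as 1 precursor and can be processed to different extents. In muscle, miR-23a is known to repress the ubiquitin ligases of fibre atrophy (Trim63, also called MuRF1, and Fbxo32, also called MAFbx). miR-27 is known to target Pax3, a regulator of muscle progenitors, and the growth inhibitor myostatin. miR-24 accumulates as myoblasts differentiate, and both clusters are also known from endothelial cells and vessel growth.

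The mature sequences below are shown because they fix which reads can be assigned to 1 gene. They come from RefSeq on build GRCm38.p6, which places all 6 hairpins at the same coordinates as the annotation of the counts. Each is written 5′ to 3′ with its seed in capitals. miR-23b-3p is named only.
miR-23a-3p: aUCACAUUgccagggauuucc
miR-27a-3p: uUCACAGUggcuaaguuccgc
miR-27b-3p: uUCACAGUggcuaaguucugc
miR-24-3p: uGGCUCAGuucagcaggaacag
miR-24-1-5p: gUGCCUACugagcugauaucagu
miR-24-2-5p: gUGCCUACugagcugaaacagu

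The guide strands of Mir27a and Mir27b had the seed UCACAGU in common and were identical at 20 of 21 bases. Their 1 difference was C19U, counted from base 1 at the 5′ end of miR-27a-3p, so the first 18 bases were the same. miR-24-3p was the same 22 bases at both Mir24-1 and Mir24-2. The 5p strands of those loci had the first 16 bases in common and differed at 5 of 22 compared bases, from U17A to G22U, counted on miR-24-1-5p. No gene of the RefSeq table other than Mir27a and Mir27b carried UCACAGU as a seed. The seed of miR-24-3p, GGCUCAG, also occurred in Mir6413, Mir6410, Mir6369 and Mir5124b. Each of those genes had 0 counts in both libraries, where the limit that 3 counts set is 1.09 CPM in the first replicate and 1.36 CPM in the second.

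The hairpins of both miR-24 loci show how far that identity reaches. Capitals mark their longest stretch in common, 28 bases, which holds all of miR-24-3p and both of its flanks.
Mir24-1: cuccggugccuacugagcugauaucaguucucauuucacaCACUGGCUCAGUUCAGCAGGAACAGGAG
Mir24-2: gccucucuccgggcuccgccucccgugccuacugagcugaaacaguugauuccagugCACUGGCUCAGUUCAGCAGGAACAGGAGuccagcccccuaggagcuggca

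Every 20-base window of the hairpins was then searched in the hairpins of the other table genes, on both strands and leaving out genes that overlap the locus. Inside miR-24-3p, 3 of 3 windows recurred at the other miR-24 locus. Inside the 5p strands, 0 of 4 windows of miR-24-1-5p and 0 of 3 of miR-24-2-5p recurred. Over the whole hairpins, 9 windows recurred exactly between the loci, and Mir24-2 had 11 in all, the others lying in Mir3074-1, the gene opposite Mir24-1. The miR-23 and miR-27 hairpins differed from this. Mir23a and Mir23b had 20 bases in common at most, as did Mir27a and Mir27b, and each hairpin held 1 window that recurred exactly. None of the windows inside miR-23a-3p, miR-27a-3p or miR-27b-3p recurred exactly (0 of 2 in each), while with 1 mismatch allowed 2 of 2 did, at the paralog. How many mismatches the authors' mapping allowed was not given in the sources used here.

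Reads with more than 1 mapped locus enter no gene's count. They numbered 4421485 in replicate 1 (44.0% of 10056843) and 4266018 in replicate 2 (52.1% of 8189059). How many of them were miR-24-3p is not given. The counts of Mir24-1 and Mir24-2 therefore leave out reads that lie within the shared stretch, and they do not show how abundant miR-24 was.

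**Figure D1:**
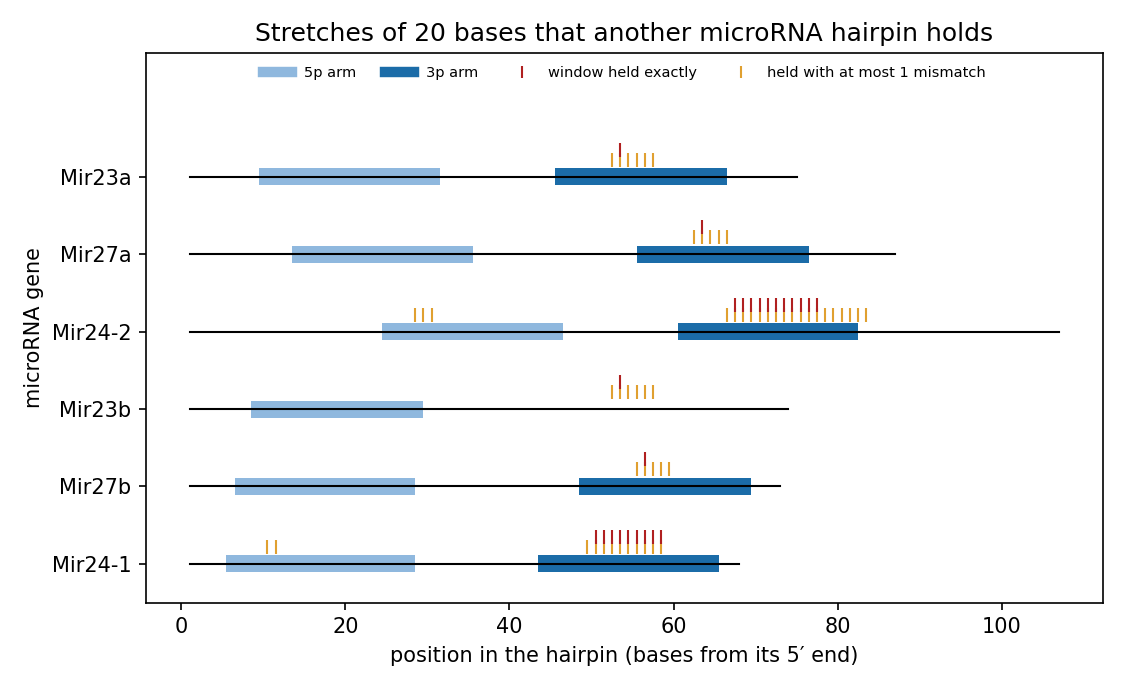
The x axis gives the position along each hairpin in bases from its 5′ end and the y axis the 6 genes; bars are annotated mature strands, and ticks stand at the centre of each 20-base window that another microRNA hairpin holds exactly (red) or with at most 1 mismatch (yellow). Exact windows crowd over the 3p arm of Mir24-1 (9 windows) and Mir24-2 (11 windows), while the other 4 hairpins have 1 each.

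The chromosome 8 cluster spans 404 bases (mm10, chromosome 8, 84208518 to 84208921, plus strand). Mir23a (ENSMUSG00000065611.1, 84208518 to 84208592) and Mir27a (ENSMUSG00000065444.1, 84208672 to 84208758) overlap no other annotated transcript. Mir24-2 (ENSMUSG00000065541.1, 84208815 to 84208921) overlaps an exon of the long noncoding RNA Gm26532 by its last 2 bases. The chromosome 13 cluster spans 792 bases (chromosome 13, 63300484 to 63301275, plus strand), with gaps of 154 and 423 bases between its hairpins against 79 and 56 bases on chromosome 8. It lies in 2010111I01Rik, named Aopep in RefSeq, which encodes an aminopeptidase. Mir23b (ENSMUSG00000065599.2, 63300484 to 63300557) is intronic in all 9 transcripts that span it. Mir27b (ENSMUSG00000065475.2, 63300712 to 63300784) lies in an exon of 1 of 9 transcripts and Mir24-1 (ENSMUSG00000105904.1, 63301208 to 63301275) overlaps an exon in 4 of 11. On the opposite strand all 3 lie in an intron of Fancc, a Fanconi anaemia gene.

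The levels of the 6 genes were spread over almost 3 orders of magnitude, in the order miR-23, miR-27, miR-24 in both clusters. The place of miR-24 in that order holds for the counts only, since they leave out reads within the shared stretch. CPM divides a gene's count by the sum over all genes, own strand only, which was 2743657 in replicate 1 and 2211254 in replicate 2. It is not divided by length, because 1 read is 1 short RNA and not a fragment of a longer one.

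Mir23b reached 26006 CPM in the first replicate and 29004 CPM in the second (mean 27505 ± 2120, SD, n = 2), rank 9 of all genes in both. Mir23a was at 20085 and 22548 CPM (mean 21316 ± 1742), rank 12 and rank 10. Both genes were thus among the 12 most abundant in each library, and the lower Mir23b value lay above the higher Mir23a value.

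Mir27b stood at 5236 CPM in the first library and 4265 CPM in the second, a mean of 4750 ± 687 (SD, n = 2) and rank 33. Mir27a was at 669 and 567 CPM, a mean of 618 ± 71.9 and rank 94. The libraries did not overlap between these paralogs, with Mir27b far above Mir27a in each.

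Mir24-2 had 379 counts in replicate 1 and 234 in replicate 2, which is 138 and 106 CPM (mean 122 ± 22.8, rank 171). Mir24-1 had 97 and 81 counts, or 35.4 and 36.6 CPM (mean 36.0 ± 0.903, rank 214). These are the members with the fewest counts and the ones whose 3p reads cannot be assigned to 1 locus. No 2 neighbours in the order Mir23b, Mir23a, Mir27b, Mir27a, Mir24-2, Mir24-1 overlapped between libraries.

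**Figure D2:**
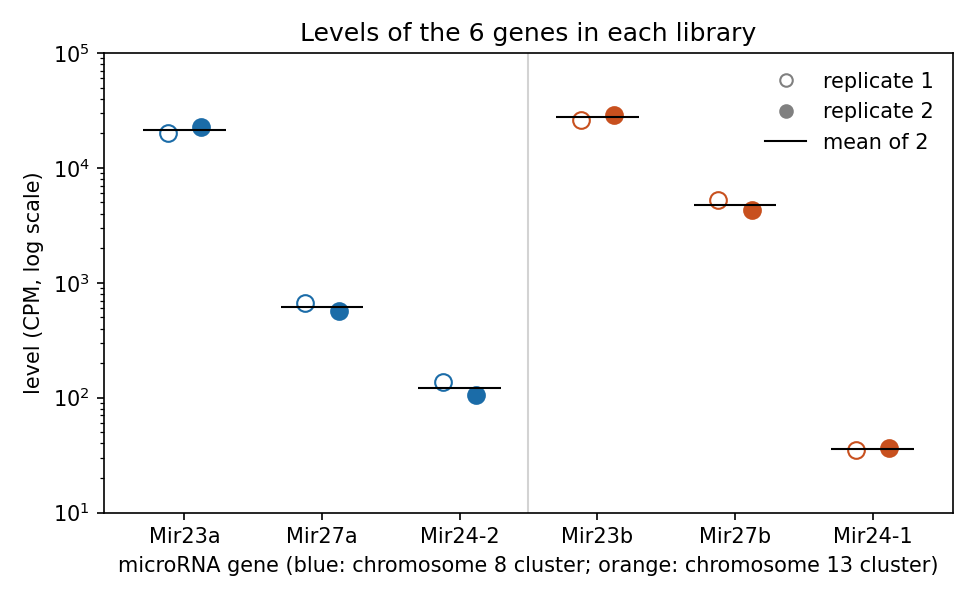
The y axis is the level in CPM on a log scale and the x axis the 6 genes, chromosome 8 cluster in blue and chromosome 13 cluster in orange; open circles are replicate 1, filled circles replicate 2 and lines the mean of 2. In each cluster the level steps down from miR-23 to miR-27 to miR-24, from 21316 to 122 CPM on chromosome 8 and from 27505 to 36.0 CPM on chromosome 13.

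Together the 6 genes held 5.22% of assigned counts in replicate 1, with a 95% Wilson interval from 5.19 to 5.24, and 5.65% in replicate 2, with one from 5.62 to 5.68. These intervals cover counting error only, since PCR copies are not independent molecules. The chromosome 13 cluster held 3.13% and 3.33%, and the chromosome 8 cluster 2.09% and 2.32%. By sequence family, the miR-23 pair held 4.61% and 5.16%, the miR-27 pair 0.590% and 0.483%, and the miR-24 pair 0.0173% and 0.0142%. The miR-23 genes were thus most of the assigned counts of both clusters. The miR-24 counts leave out reads within the stretch shared by both loci, so these shares do not show how abundant miR-24 was. Mir23a was 96.1% and 97.1% of the chromosome 8 cluster, and Mir23b was 83.1% and 87.1% of the chromosome 13 cluster. Mir27b made up 16.7% and 12.8% of its cluster, against 3.20% and 2.44% for Mir27a.

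The genes of the paralogous clusters were not offset by 1 common factor. Mir23b stood at 1.29 times Mir23a in both libraries (1.29 ± 0.00604, SD, n = 2). Mir27b was 7.83 times Mir27a in replicate 1 and 7.52 times in replicate 2, a mean of 7.67 ± 0.218. For the third pair the order was the other way, with Mir24-2 on chromosome 8 at 3.91 and 2.89 times Mir24-1 (mean 3.40 ± 0.720). Reads that are left out of both miR-24 genes limit that last ratio. Windows inside miR-23a-3p, miR-27a-3p and miR-27b-3p recurred at the paralog with 1 mismatch allowed. Mapping may therefore also bear on the miR-23 and miR-27 ratios, which was not tested. Summed, the chromosome 13 cluster was 1.50 times the chromosome 8 cluster in replicate 1 and 1.43 times in replicate 2.

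Within the chromosome 8 cluster, Mir23a was 30.0 times Mir27a in replicate 1 and 39.8 times in replicate 2. The same step within the chromosome 13 cluster was smaller, with Mir23b at 4.97 and 6.80 times Mir27b. Mir27a was 4.84 and 5.36 times Mir24-2, and Mir27b was 148 and 116 times Mir24-1. Neither step overlapped between the clusters. Reads left out of the miR-24 counts limit the step from miR-27 to miR-24.

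Steps between neighbours were set beside other microRNA genes that lie in 1 cluster. Of 24 such pairs listed, 18 had both genes past the 10 CPM minimum. The ratio of the higher to the lower gene in those 18 pairs ranged from 1.04 for Mir181d over Mir181c to 2716 for Mir206 over Mir133b, with a median of 5.91. The ratio of Mir23b to Mir27b (mean 5.88) had 9 of the 18 above it, and that of Mir23a to Mir27a (mean 34.9) had 6 above it. The ratio of Mir27a to Mir24-2 (mean 5.10) had 9 above it, and that of Mir27b to Mir24-1 (mean 132) had 1. Some wide pairs, such as Mir99a over Mirlet7c-1 (90.1) and Mir30e over Mir30c-1 (71.7), have a lower gene whose mature sequence is encoded at another locus, as Mir24-1 and Mir24-2 do. The lower genes of Mir206 over Mir133b and Mir30d over Mir30b (72.8) are not on the list of such loci used below. Narrow pairs have such a lower gene too, as in Mir15b over Mir16-2 (4.64) and Mir15a over Mir16-1 (1.46). Whether this bears on the width of a pair was not tested.

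The 2 libraries were then compared. A log2 ratio here sets replicate 2 against replicate 1 on the log2(CPM + 1) scale, with TMM-scaled library sizes (trimmed mean of M-values), and is positive where replicate 2 was higher. Tests ran over the 258 genes that passed the minimum, with Benjamini-Hochberg adjustment over those genes. Both miR-23 genes were higher in replicate 2, with a log2 ratio of 0.11 for Mir23b (exact binomial test, adjusted p = 5.43e-44) and 0.12 for Mir23a (exact binomial test, adjusted p = 2.66e-40). Both miR-27 genes were lower, at −0.34 for Mir27b (exact binomial test, adjusted p = 1.94e-71) and −0.28 for Mir27a (exact binomial test, adjusted p = 2.56e-07). Mir24-2 was lower at −0.43 (exact binomial test, adjusted p = 0.000836), and Mir24-1 stood at 0.0044 (exact binomial test, adjusted p = 1.00).

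The members called were thus 5 of 6 by the binomial test, against 50.8% of all genes tested, with 2 higher (19.0% of all tested) and 3 lower (31.8%). Sizes taken from total counts gave a split over all genes of 67 higher and 66 lower instead of 49 and 82, and the 2 and 3 among the members did not change. This test speaks of these libraries alone and knows no error but that of counting. Deeper genes passed it more often: of the 178 genes with a minimum of 100 CPM, 64.0% were called. edgeR's exact test, which adds the spread typical of all genes between the libraries (a biological coefficient of variation of 12.8%), called 1.16% of genes and 0 of the 6 members, with 0 members at an unadjusted p under 0.05. Its adjusted p for the members ran from 0.950 to 1.00. That spread was estimated from the same 2 libraries, so a gene with a difference of typical size could hardly be called. The lack of calls thus does not show equal levels. The median absolute log2 ratio was 0.20 for the members and 0.18 for all genes tested. The largest difference, that of Mir24-2, had 34 of the 258 genes further from 0.

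**Figure D3:**
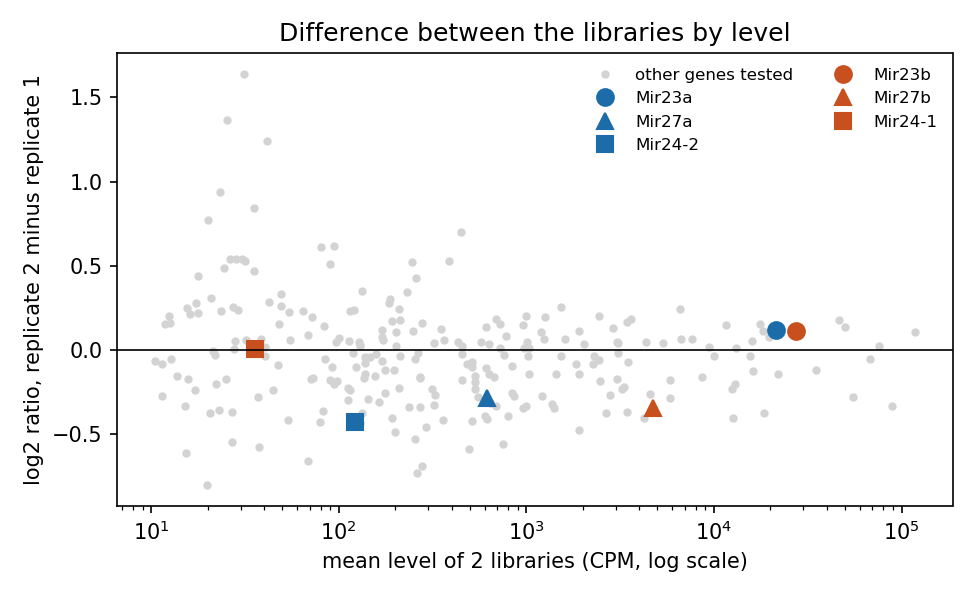
The x axis is the mean level of 2 libraries in CPM on a log scale and the y axis the log2 ratio, replicate 2 minus replicate 1; grey dots are the other genes tested and coloured marks the 6 members, chromosome 8 in blue and chromosome 13 in orange. The miR-23 circles lie just above 0 at 0.11 and 0.12, the miR-27 triangles lie below it at −0.34 and −0.28, and all 6 are within the spread of the other genes.

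Both miR-23 genes thus differed between the libraries by similar amounts, and so did both miR-27 genes, while miR-23 and miR-27 of 1 cluster differed in opposite directions. The miR-24 loci lay apart from each other. Windows inside miR-23a-3p, miR-27a-3p and miR-27b-3p recurred at the paralog with 1 mismatch allowed, and the mismatches allowed in mapping are not known. Counts of these paralogs may therefore not be independent of each other, which was not tested. A ratio within a library does not depend on library scaling. The ratios of 2 members, and that of the cluster sums, were compared by a two-sided Fisher's exact test with Benjamini-Hochberg adjustment over these 10 ratios. The ratio of Mir23b to Mir23a in replicate 2 was 0.993 of that in replicate 1 (Fisher's exact test, p = 0.422, adjusted p = 0.469). That of Mir27b to Mir27a was 0.961 of it (p = 0.310, adjusted p = 0.387 by Fisher's exact test). In contrast, Mir23b to Mir27b was 1.37 times as high in replicate 2 (Fisher's exact test, p = 4.43e-108, adjusted p = 4.43e-107) and Mir23a to Mir27a 1.32 times as high (Fisher's exact test, p = 3.02e-14, adjusted p = 1.51e-13). Mir23a to Mir24-2 was 1.47 times as high (adjusted p = 9.01e-06 by Fisher's exact test). The ratios that missed the threshold beside these were Mir27a to Mir24-2 (1.11 times), Mir23b to Mir24-1 (1.08 times), Mir27b to Mir24-1 (0.786 times) and Mir24-2 to Mir24-1 (0.739 times, p = 0.0825 and adjusted p = 0.165 by Fisher's exact test). The test covers counting error only, and a ratio that missed its threshold was not shown to be equal in both libraries. The ratio of the cluster sums, chromosome 13 to chromosome 8, in replicate 2 was 0.958 of that in replicate 1 and is given with no p, since it sums over the members.

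Among the 18 other clustered pairs, the ratio in 1 library was a median of 1.15 and at most 1.55 times that in the other. Of them, 3 were further apart than Mir23b to Mir27b and 5 further apart than Mir23a to Mir27a. With direction set aside, the shift within the clusters was inside the range of those pairs, but their counting error was not compared. The largest upward shift of the 18 was 1.36 times, for Mir181d over Mir181c, against 1.37 times for Mir23b to Mir27b. The 3 further apart than Mir23b to Mir27b were Mir30e over Mir30c-1 (1.55), Mir99a over Mirlet7c-1 (1.53) and Mir206 over Mir133b (1.53), and all 3 ratios were lower in replicate 2. In each of them the lower gene was far below the higher one, and whether its counts bear on the spread of the ratio was not tested. The range thus does not show that the shift is typical.

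**Figure D4:**
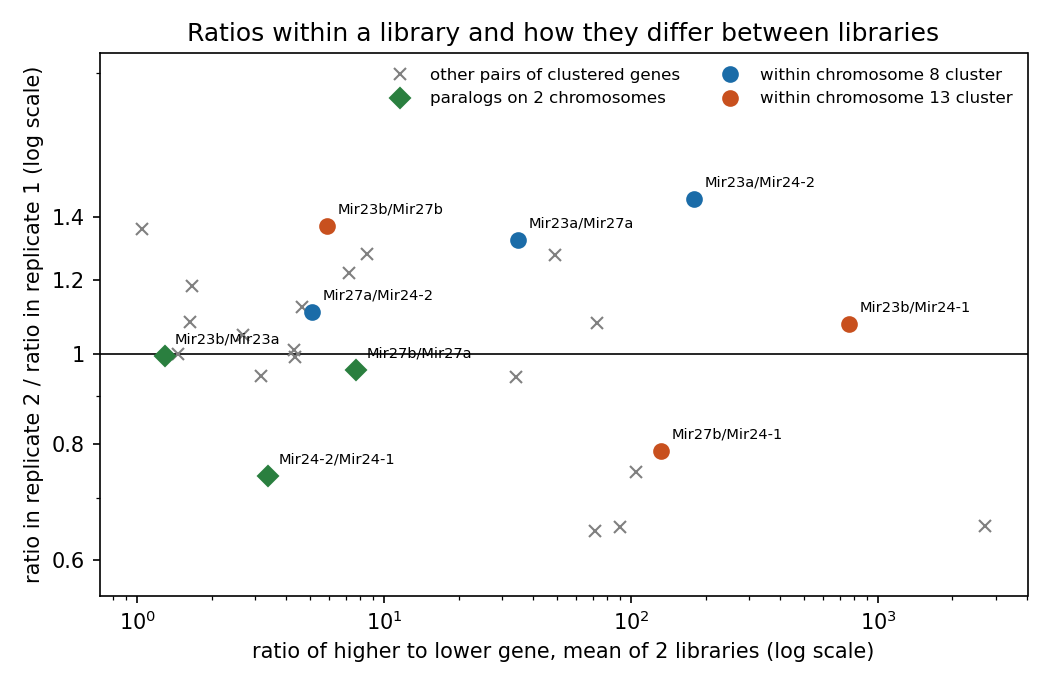
The x axis is the ratio of the higher to the lower gene (mean of 2 libraries, log scale) and the y axis the ratio in replicate 2 divided by that in replicate 1 (log scale); diamonds are the paralogs, circles the pairs within a cluster and crosses the 18 other clustered pairs. The miR-23 and miR-27 diamonds lie near 1, at 0.993 and 0.961, while both ratios of miR-23 to miR-27 within a cluster lie at 1.32 and 1.37.

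Marker microRNAs of other cells were also set side by side in the 2 libraries, with no test of their sums. In bulk tissue, fewer cells of a type and less RNA per cell cannot be told apart. Both endothelial markers had counts, with summed levels of 98088 and 80434 CPM in replicates 1 and 2. Almost all of that was Mir126a (98087 and 80432 CPM), which had a log2 ratio of −0.33. All 4 connective tissue markers had counts, at 4825 and 3781 CPM in sum, most of it Mir214 (4738 and 3708 CPM). Both smooth muscle markers had counts, at 36704 and 34920 CPM, most of it Mir143 (35692 and 33902 CPM). Each of these sums thus rests mainly on 1 gene. These sums were lower in replicate 2, in CPM without TMM scaling. Some other genes of the lists went the other way in CPM. Mir126b (near the floor), Mir145a and Mir199a-2 were higher in replicate 2, while Mir199a-1 and Mir199b were lower in sum. The sums therefore do not show that a cell type was lower. Markers of red cells (384 and 571 CPM), leukocytes (977 and 1048 CPM) and liver (108 and 132 CPM) had higher values in replicate 2. The only liver marker, Mir122, was not called (exact binomial test, adjusted p = 0.0847). The part of any of these cells in the miR-27 difference was not tested. The share of reads that mapped to several loci differed too (44.0% and 52.1%), and its part was not tested either.

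Markers of the labelled tissue were present. All 9 skeletal muscle markers had counts, at 69535 and 69214 CPM in sum, most of it Mir206. Red cell markers (2 of 2) stood at 384 and 571 CPM and leukocyte markers (4 of 4) at 977 and 1048 CPM. The liver marker Mir122 (1 of 1) was at 108 and 132 CPM. Of 6 neuronal markers, 5 had no count (Mir124a-1, Mir124a-2, Mir124a-3, Mir9-1 and Mir9-2) and the sixth, Mir9-3, was at 0 and 0.452 CPM.

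The clusters are known from muscle and vessels, so lists for both were described beside them. Of 28 microRNA genes known from muscle mass and myogenesis, all had a count and 25 were tested, with 7 called higher and 6 called lower in replicate 2 by the binomial test and a median log2 ratio of 0.013. The shares over all genes tested were 19.0% higher and 31.8% lower. With sizes from total counts the split of the list was 10 and 4, and edgeR's exact test called 0 of the 25 (1 at an unadjusted p under 0.05), against 3 of all 258. The list was led by Mir378a (117291 CPM ± 8973) and Mir206 (68099 CPM ± 267), the microRNA of skeletal and regenerating fibres. They were followed by Mir322 (13175 CPM ± 388), which promotes cell cycle exit of myoblasts, and Mir214 (4223 CPM ± 728). Mir23b thus lay between Mir206 and Mir322, and Mir27b between Mir322 and Mir214. Of 26 genes listed for vessels and angiogenesis, 23 had a row under that symbol and 20 were tested, with 1 called higher and 9 called lower by the binomial test, against the same 19.0% and 31.8%, and a median of −0.035. Total-count sizes gave 5 and 8 and a median of 0.012, so the sign of the median rests on the scaling, and edgeR's exact test called 0 of the 20 (1 at an unadjusted p under 0.05). It was led by Mir126a, Mir143 (34797 CPM ± 1266), Mir21a (16074 CPM ± 598) and Mir322, which is on both lists. The median over all 258 genes was −0.037, or 0.0095 with total-count sizes.

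Loci whose mature sequence also lies at another locus were set beside Mir24-1 and Mir24-2. Of 57 listed, 53 had a row under that symbol, 47 had a count and 26 reached the minimum. Their median level was 186 CPM, against 260 CPM for all genes tested. Their highest members were Mirlet7f-2 at 3635 CPM ± 408, Mir196a-2 at 1013 CPM ± 46.3, Mir181b-2 at 775 CPM ± 49.5 and Mir128-1 at 720 CPM ± 70.6. Mir24-2 at 122 CPM and Mir24-1 at 36.0 CPM were below the median of the 26. By the binomial test, 7 of the 26 were called higher and 4 lower in replicate 2 (19.0% and 31.8% over all genes tested), with a median log2 ratio of 0.065. Total-count sizes gave 11 and 2, and edgeR's exact test called 1 of the 26, Mir138-1, higher.

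A gene is annotated on the opposite strand of each miR-24 hairpin. Mir3074-1, opposite Mir24-1 (chromosome 13, minus strand), had 29 counts in replicate 1 and 23 in replicate 2, or 10.6 and 10.4 CPM. Mir3074-2, opposite Mir24-2, had 0 in both. These were the only other genes of the table within 10 kb of a member. With either strand counted, a read under both genes is ambiguous, and Mir24-1 and Mir24-2 then held 0 counts in both libraries. The counts of Mir23a, Mir27a, Mir23b and Mir27b were the same in both columns, and none of these 4 had a read on the opposite strand.

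With 2 libraries the genes most like a member can only be those next to it in mean level. Mir23b stood between Mir143 and Mir379 (21851 CPM ± 1002), and its libraries overlapped with those of neither. Mir23a stood between Mir379 and Mirlet7d (19583 CPM ± 1176) and overlapped with both. Mir379 had a log2 ratio of −0.14, against 0.11 and 0.12 for the miR-23 genes on either side of it. Mir27b stood between Mir191 (5384 CPM ± 232) and Mir299a (4567 CPM ± 481), and overlapped with both. Mir27a stood between Mir181d (630 CPM ± 24.7) and Mir181c (615 CPM ± 109), and overlapped with both. Mir24-2 lay between Mir339 (123 CPM ± 3.28) and Mir122 (120 CPM ± 16.8) and overlapped with both, and Mir24-1 between Mir675 (37.0 CPM ± 4.37) and Mir598 (35.3 CPM ± 15.3), also with overlap. Apart from Mir23b, the place of each member between its neighbours was thus within the spread of the libraries.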

How the data were processed

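The deposited values were counts, whole numbers of reads per microRNA gene without normalization, 1 table per library, in columns for either strand, the gene's own strand and the opposite strand. Per the file notes deposited beside the tables, the authors made them on mm10 with annotation M21; for the aligner, counter, versions and trimming, the entry is: not given in the sources used here. Reads came from a cross and the build is that of C57BL/6; what this does to counts was not tested. Own-strand counts were used throughout. The 4 lines that name no gene held 72.7% and 73.0% of reads and stayed out of CPM and tests. All 2202 identifiers matched GENCODE vM21.

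Library sizes were scaled with the TMM of edgeR 4.0.16 (R 4.3.3), computed over all gene rows. Each gene at 10 CPM or more in both libraries had a two-sided exact binomial test between the libraries, with Benjamini-Hochberg adjustment and a threshold of 0.05; with 1 group there was no condition to fit. edgeR's exact test with an intercept-only dispersion was an alternative, as were sizes from DESeq2 1.42.0. Ratios of 2 genes were compared with Fisher's exact test (SciPy 1.17.1).

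The members and lists were chosen with earlier results of these data known. Genes named were the members, table genes within 10 kb, next in mean CPM or with a member's guide seed, and up to 4 highest of each list; other genes, such as cell markers and extreme clustered pairs, were named after their values were seen. A count of 0 allows up to 3 counts. Sequences came from RefSeq (GRCm38.p6) and matched 6 of 6 hairpins; windows of 20 bases came from GENCODE vM21 transcripts.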

Additional observations from a re-analysis of the deposited data

Results flagged for a closer look

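The opposite-strand column, which no comparison above uses, held reads at 1 member. Opposite Mir24-1 there were 29 counts in replicate 1 and 23 in replicate 2, above the 3 counts that a count of 0 allows. They are the reads counted for Mir3074-1 on its own strand. The labels give no control sample to set them against.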

How the results depend on the processing

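The order of the 6 levels was the same under every setting, except that Mir24-1 and Mir24-2 were both at 0 with either strand counted. The direction of each log2 ratio was the same under every setting that gave a value. Across the binomial alternatives (other library sizes, minimum, pseudocount and strand), the log2 ratio ranged from 0.11 to 0.16 for Mir23b, 0.12 to 0.17 for Mir23a, −0.34 to −0.30 for Mir27b, −0.28 to −0.24 for Mir27a and −0.43 to −0.38 for Mir24-2, all past the threshold. TMM over the tested genes alone was added after seeing the data. With edgeR's exact test the ratios of Mir23a (0.12), Mir23b (0.11), Mir27a (−0.28), Mir27b (−0.34) and Mir24-2 (−0.43) lost their call, and the count over all genes was 3, with 3 higher and 0 lower (15 at an unadjusted p). Its dispersion came from the same 2 libraries, so differences of typical size could hardly be called.

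Levels follow their total. With either strand counted they were 27782 CPM for Mir23a, 35848 for Mir23b, 806 for Mir27a, 6195 for Mir27b, and 0 for Mir24-1 and Mir24-2, with cluster shares of 2.86% (chromosome 8), 4.20% (chromosome 13) and 7.06% (both). Scaled by all reads of a library instead, mapped or not, they were 5784, 7463, 168, 1290, 9.77 and 33.1 in the same order, with shares of 0.598%, 0.876% and 1.47%. Without Mir378a in the total, Mir23a was at 24160 CPM, Mir23b at 31174, Mir27a at 699.7 and Mir24-1 at 40.8. Leaving out a replicate moved no level, ratio or share by more than its SD, which with 2 libraries it cannot, and leaves no log2 ratio. The 100 CPM minimum drops Mir24-1.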
